A study of Mus musculus with 43 samples.

Results

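The genes described here encode proteins that join nerve cells at synapses, and they were measured in whole gonads of fetal and newborn mice: the calsyntenins Clstn1, Clstn2 and Clstn3, the leucine-rich repeat proteins Lrrc4 and Lrrc4c, the cerebellins Cbln1 and Cbln2, and the neurexin Nrxn3. These 8 genes, of 18184 genes on the array, are represented by 19 of 45007 probe sets. The set was chosen by measured values: Clstn2 and Lrrc4 were picked for their lower signal in ovaries without Foxl2, Cbln1 for its signal in ovaries without Wnt4, and the other 5 as their relatives. The differences in Foxl2-null and Wnt4-null ovaries that served in the choice are therefore given as a description, with no test. Those in sex, age, Foxl2 heterozygosity and Kit mutation, which the choice did not use, were tested, although they share control arrays with the former. In the Kit comparison and those of ovary age, each group is itself a reference group of a comparison that served in the choice.

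Calsyntenins are membrane proteins of the cadherin superfamily that sit on the postsynaptic side, bind neurexins and attach to kinesin motors inside the cell. LRRC4 and LRRC4C, also called netrin-G ligands, are postsynaptic proteins that bind the netrin-G proteins of incoming axons. Cerebellins are secreted C1q-like proteins that bridge presynaptic neurexins to receptors across the synapse. In the gonad, the same families are less well known, and FOXL2 (a forkhead factor that granulosa cells need), WNT4 (a secreted signal of the fetal ovary) and KIT (the receptor on which germ cells depend) are the genes whose loss was compared here.

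Each of the 43 Affymetrix MOE430 v.2 arrays held RNA from the gonads of 1 mouse, dissected without adjacent tissue, and the 15 groups held 3 arrays each, except the 2 groups of E15 (embryonic day 15), which held 2 each. At E13, Foxl2-/- ovaries were set against ovaries that the labels call Foxl2+/- and the methods wild-type littermates, here "control". The ovaries of E16 and P0 whose labels name no mutation are called wild type here. At E16, wild-type, Foxl2+/- and Foxl2-/- ovaries were compared, and on the day of birth (P0) wild-type and Foxl2-/- ovaries. Ovaries of Wnt4 knockout mice at E15 had Wnt4+/- controls. At P0, Wnt4-/- and Kit Wv/Wv ovaries, both labelled Foxl2+/-, were set against the respective ovaries that also lacked Foxl2. Testes were taken at E13 and P0, and by the methods the P0 testes came from Wnt4-null mice, whose testis differentiation is partly defective. Kit Wv is a hypomorphic allele, not a deletion. By the methods the strains were mixed, with CD1, NIH-Swiss/BC and C57BL/6J contributing to most groups but 129 and C57BL/6J to those of E15, so that E15 groups differ from the others in strain as well as age.

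Signals are given as multiples of the mean intensity that all arrays share, and differences as log2 values ± SE from 1 limma fit. Array medians lay between 0.180 and 0.295 of that mean, and replicate arrays correlated at 0.922 to 0.982. The number of arrays limits the precision. Foxl2 itself read 5.32 to 32.6 in ovaries of the 5 reference groups of its deletion and 0.606 to 7.64 in those of the 5 null groups, with no overlap within any pair of groups. Wnt4 read 1.01 to 1.31 in the E15 controls against 0.359 to 0.414 in the nulls, and 0.581 to 0.745 against 0.200 to 0.306 at P0. The 7 measured markers of ovarian supporting cells summed to 12.2 to 54.7 in all ovary arrays except those that lacked both Wnt4 and Foxl2, which read 3.29 to 7.16, and the testes read 1.48 to 2.52.

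RefSeq promoter windows, each from 250 bases before to 50 after a transcription start on build GRCm38.p6, were found for 6 of the 8 genes. Those of the pair with the lower signal in Foxl2-null ovaries are printed, since FOXL2 is a forkhead factor and a reader may want to search them. Capitals mark matches, on either strand, to the GC box GGGCGG, the CCAAT box, the cAMP response element TGACGTC and the SOX and TCF core ACAAAG, motifs picked with these windows in view.
Clstn2, chr9:98033118-98033417, minus strand: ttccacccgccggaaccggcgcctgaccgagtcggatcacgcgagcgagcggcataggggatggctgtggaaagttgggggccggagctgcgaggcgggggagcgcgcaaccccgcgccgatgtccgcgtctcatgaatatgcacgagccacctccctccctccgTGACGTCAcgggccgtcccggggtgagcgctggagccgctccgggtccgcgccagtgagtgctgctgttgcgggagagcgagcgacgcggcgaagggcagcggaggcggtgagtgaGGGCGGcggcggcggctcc
Lrrc4, chr6:28831698-28831997, minus strand: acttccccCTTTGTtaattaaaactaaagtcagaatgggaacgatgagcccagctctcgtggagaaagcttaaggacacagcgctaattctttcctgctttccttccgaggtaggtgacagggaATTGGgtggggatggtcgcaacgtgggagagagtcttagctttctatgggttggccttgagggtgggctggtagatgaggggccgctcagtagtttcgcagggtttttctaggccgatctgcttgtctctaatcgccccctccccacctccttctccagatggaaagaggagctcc

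The Clstn2 window held the cAMP response element once on each strand, in overlapping matches, and 1 GC box. The Lrrc4 window held 1 inverted SOX and TCF core and 1 inverted CCAAT box. Neither window, nor any of the other member windows, held the forkhead core TGTTTAC on either strand. Of all 32851 windows of this length, 3.65% held that core, 3.21% the cAMP response element, 35.7% the GC box, 37.4% the CCAAT box and 18.7% the SOX and TCF core. The Clstn2 window was 72.7% G and C with 43 CpG dinucleotides, a CpG count reached by 2.61% of all windows, whereas the Lrrc4 window was 52.7% G and C with 10, a count reached by 43.5%. The 2 starts therefore differed in base composition, and no short motif searched was shared by their windows.

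Clstn2, the calsyntenin of the pair, had its highest group means in wild-type ovaries of E16 and P0 and was low in testes and in Foxl2-null ovaries. In control ovaries of E13 its brightest probe set read 0.375, 0.459 and 0.237, in those of E15 0.845 and 0.682, in those of E16 1.296, 1.39 and 1.25, and in those of P0 1.12, 1.21 and 1.28. Testes read 0.200, 0.141 and 0.107 at E13 and 0.301, 0.401 and 0.299 at P0. Every wild-type ovary of E16 and P0 thus lay above every testis and above every E13 and E15 ovary. Kit mutant ovaries of P0 came next by group mean, at 1.17, overlapped wild type and held the highest array of the series, at 1.43. Across all 15 groups the means spanned 8.78-fold.

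Without Foxl2, Clstn2 was lower in each of 5 models, but at E13 the arrays overlapped. Null ovaries read 0.203, 0.331 and 0.0855 at E13, 0.534, 0.4003 and 0.360 at E16, and 0.179, 0.460 and 0.264 at P0. In the Wnt4-null background, 0.676, 0.758 and 0.845 with a Foxl2 copy stood against 0.260, 0.266 and 0.356 without. In the Kit background, 1.34, 1.43 and 0.739 stood against 0.459, 0.347 and 0.278. The null groups came close to one another, with means from 0.207 to 0.431, while those of their references ran from 0.357 to 1.31. The log2 differences were -0.89 ± 0.32 at E13, -1.60 ± 0.32 at E16, -2.07 ± 0.32 at P0, -1.35 ± 0.32 in the Wnt4-null background and -1.64 ± 0.32 in the Kit background. At E13 each null array read below the control array of its number. Arrays of the same number were also fitted as pairs because their deviations correlated, at 0.132 to 0.158, and not by the design. Single correlations of that size occurred elsewhere, such as 0.196 for number 3 in the E16 heterozygote comparison, so the pairing is an assumption. Under it the difference stayed at -0.89 ± 0.26. Without null replicate 3 the unpaired difference was -0.39, and without null replicate 2 it was -1.31.

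The second probe set of Clstn2, at 0.0462 to 0.366 the dimmer one, correlated with the first at r = 0.82 over the 43 arrays. It differed by -1.66 ± 0.34 at E16, -1.82 ± 0.34 at P0 and -1.54 ± 0.34 in the Wnt4-null background, with no overlap of the arrays. In the Kit background (-0.37 ± 0.34) and at E13 (-0.21 ± 0.34) its arrays overlapped, so the 2 probe sets disagreed there. By Affymetrix's naming the brighter one is of the _s_at kind, whose probes match more than 1 transcript.

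**Figure D1:**
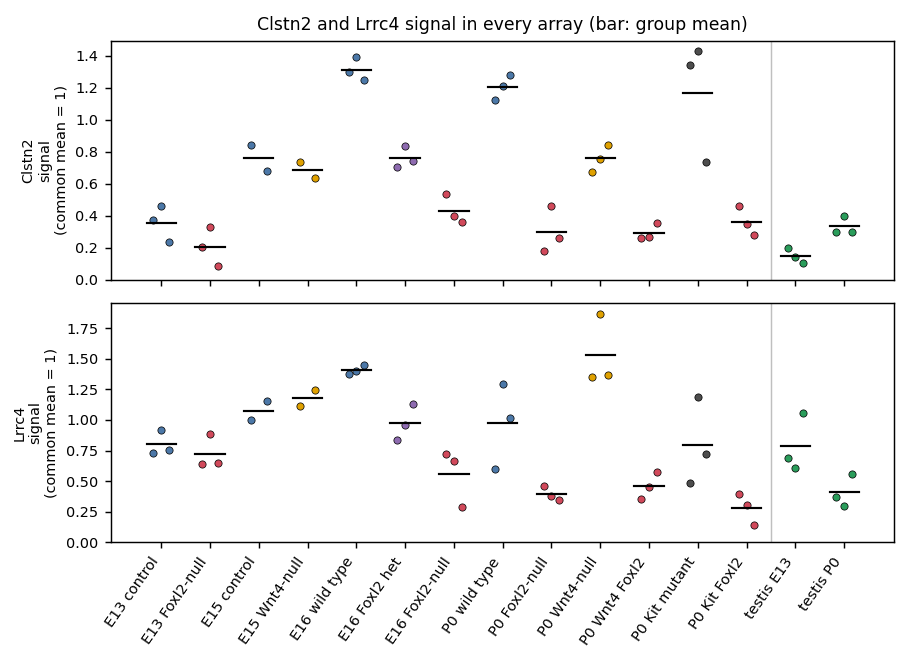
Signal of the brightest probe sets of Clstn2 (upper panel) and Lrrc4 (lower panel) on linear axes, as multiples of the common mean, for each array (points) and group mean (bars), with Foxl2-null groups in red, Wnt4-null groups in yellow and testes at the right. Clstn2 stays between 0.0855 and 0.534 in all Foxl2-null arrays, and Lrrc4 lies below its reference arrays at E16 and P0 but overlaps them through 1 array at E13.

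Lrrc4, whose protein binds netrin-G2, was lower in Foxl2-null ovaries from E16 on. Control ovaries read 0.732, 0.914 and 0.758 at E13, 0.995 and 1.15 at E15, 1.37, 1.40 and 1.45 at E16, and 0.603, 1.296 and 1.01 at P0. Testes read 0.689, 0.610 and 1.06 at E13 and 0.372, 0.299 and 0.559 at P0. Testis and ovary overlapped at E13 and not at P0.

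At E13, Foxl2-null ovaries read 0.639, 0.889 and 0.645 against 0.732, 0.914 and 0.758, so that 1 null array lay among the controls and the other 2 below them. The null arrays were separate from E16 on, at 0.720, 0.664 and 0.291 at E16 and 0.463, 0.382 and 0.347 at P0. The log2 difference was -0.15 ± 0.32 at E13, -1.42 ± 0.32 at E16 and -1.21 ± 0.32 at P0. In the Wnt4-null background the signals were 1.35, 1.87 and 1.37 with a Foxl2 copy and 0.357, 0.453 and 0.578 without, a difference of -1.71 ± 0.32. In the Kit background they were 0.483, 1.19 and 0.720 against 0.396, 0.303 and 0.139, or -1.50 ± 0.32. The second probe set gave -0.06 ± 0.27, -0.92 ± 0.27, -1.30 ± 0.27, -1.67 ± 0.27 and -0.80 ± 0.27 in the same order, with no overlap in any but the first. Its correlation with the brighter one was r = 0.76 over the 43 arrays.

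In Wnt4-null ovaries of P0, Clstn2 was lower and Lrrc4 higher than in wild type. These ovaries are also Foxl2+/- by their labels, so loss of Wnt4 and of 1 Foxl2 copy cannot be told apart here or in any other comparison of P0 Wnt4-null with wild-type ovaries. Wnt4-null ovaries of P0 read 0.676 to 0.845 for Clstn2, below the 1.12 to 1.28 of wild type (-0.66 ± 0.32), but 1.35 to 1.87 for Lrrc4, above the wild-type 0.603 to 1.296 (0.70 ± 0.32). The second probe set of Lrrc4 was higher as well (0.74 ± 0.27, no overlap), and the first gave 0.39 without wild-type replicate 1, while that of Clstn2 gave -0.44 ± 0.34 and overlapped. At E15 both overlapped their controls, with Clstn2 at 0.739 and 0.639 and Lrrc4 at 1.11 and 1.25 (differences of -0.14 ± 0.39 and 0.14 ± 0.40). The second probe set of Lrrc4 went the other way at E15, at -0.34 ± 0.33 without overlap. The Wnt4-null P0 ovaries had the highest group mean of Lrrc4 in the series, 1.53, next to 1.40 in wild-type E16 ovaries, whose arrays overlapped them.

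Cbln1, the secreted cerebellin of the parallel fibre synapse in the cerebellum, was foremost a testis gene here, and the data went against the wording by which it was picked: it was higher, not lower, in Wnt4-null ovaries of E15. Testes read 9.33, 8.26 and 9.14 at E13 and 8.89, 8.89 and 9.33 at P0. Control ovaries read 0.420, 0.484 and 0.689 at E13, 0.219 and 0.139 at E15, 0.176, 0.227 and 0.165 at E16, and 0.477, 0.977 and 0.808 at P0. Every testis lay above every ovary of the series. Over the 15 groups the means spanned 232-fold, the widest range among the brightest probe sets of the 8 genes.

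In Wnt4-null ovaries Cbln1 read 1.33 and 2.36 at E15 against 0.219 and 0.139, a log2 difference of 3.27 ± 0.36, or 9.68-fold on the plus-pseudocount scale, with 3.91 ± 0.37 and 4.06 ± 0.48 at the other probe sets. At P0 the brightest probe set read 0.651, 0.432 and 0.639, among the wild-type arrays (-0.35 ± 0.30), while the other 2 probe sets were higher without overlap, by 1.02 ± 0.30 and 0.66 ± 0.39. When Foxl2 was missing as well, the signal was 2.50, 2.37 and 1.93, above every Wnt4-null array of P0 (1.98 ± 0.30, and 1.91 ± 0.30 and 1.35 ± 0.39 at the other probe sets). Loss of Foxl2 alone showed no such difference: Cbln1 read 0.407, 0.567 and 0.499 at E13, 0.161, 0.155 and 0.157 at E16 and 0.527, 0.381 and 0.783 at P0, with differences of -0.09 ± 0.30, -0.24 ± 0.30 and -0.41 ± 0.30. In the Kit background the 2 groups were the dimmest of the series, at 0.0619, 0.0670 and 0.102 with a Foxl2 copy and 0.0150, 0.0447 and 0.0572 without (-0.92 ± 0.30). The other probe sets of Cbln1 overlapped in that comparison (-0.27 ± 0.30 and -0.62 ± 0.39).

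**Figure D2:**
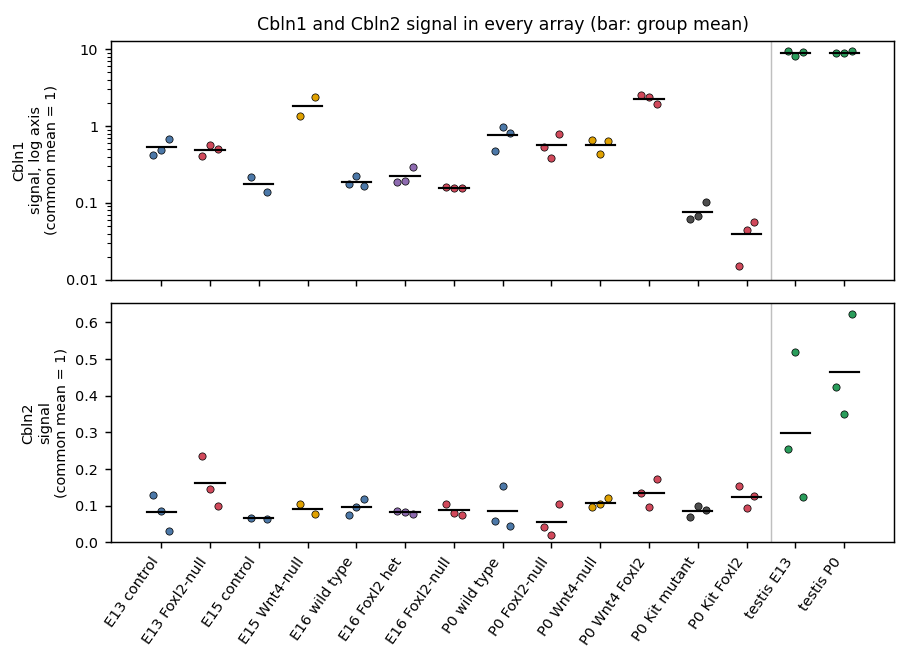
Signal of the brightest probe sets of Cbln1 (upper panel, logarithmic axis) and Cbln2 (lower panel, linear axis), as multiples of the common mean, for each array (points) and group mean (bars). Cbln1 lies between 8.26 and 9.33 in the testes, between 1.33 and 2.50 in Wnt4-null ovaries of E15 and in P0 ovaries without Wnt4 and Foxl2, and at 0.977 or below in the other ovaries.

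Markers of Sertoli cells, which nurse the germ cells of the testis, moved with Cbln1 in part of these groups. The summed signal of all 8 listed Sertoli genes, none of them at 0, was 31.0 to 51.1 in testes, 25.6 to 28.6 in P0 ovaries without Wnt4 and Foxl2 and 11.9 to 13.5 in Wnt4-null P0 ovaries, against 4.67 to 5.82 in wild-type P0 ovaries. At E15, where Cbln1 was higher in Wnt4-null ovaries, the sum was 4.54 to 4.78 in nulls and 3.11 to 5.48 in controls, so the summed list overlapped, with Dhh called up and Sox9 called down of its 8 genes. Other lists were apart at E15: the 5 measured of 6 steroidogenic genes summed to 3.57 to 5.41 in nulls against 2.28 to 3.32 in controls, the 5 adrenal cortex genes to 0.638 to 1.33 against 0.295 to 0.427, and the ovarian supporting genes, Wnt4 among them, to 21.2 to 22.6 against 35.2 to 35.6. Also apart at E15 were the sums of the 3 measured of 5 mesonephric duct genes, at 3.37 to 3.85 in nulls against 7.96 to 8.19 in controls. Of the 3, only Emx2 was called, which fell and which the paper counts among the somatic genes, and their median log2 difference was -0.0898. The 5 endothelial genes were apart too, at 5.01 to 6.72 against 4.15 to 4.6. With 2 arrays in each group, 44.5% of all genes parted at E15. The 9 germ cell markers summed to 53.5 to 92.6 in wild-type P0 ovaries and 2.19 to 9.92 in Kit mutants. Their part in the Cbln1 differences was not tested, and in whole gonads fewer cells of a type and less RNA per cell cannot be told apart.

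Other cell lists moved with the members in some Foxl2 comparisons and not in others. The 9 measured neuron markers, of 10 listed, summed to 1.06 to 1.51 in wild-type and 1.28 to 1.67 in Foxl2-null ovaries of E16. At P0 they summed to 0.763 to 1.42 and 1.07 to 1.24. These groups overlapped, as did those of the Kit background (1.73 to 2.15 and 1.65 to 2.34). In the Wnt4-null background the sum was higher without Foxl2, at 1.48 to 2.72 against 1.23 to 1.41. At E13 it reached 0.993 to 3.19 in nulls against 0.955 to 1.57 in controls, and Snap25 rose, 1 of the 9. The 4 measured Schwann and neural crest genes, of 6 listed, summed to 0.485 to 0.504 in Foxl2-null against 0.678 to 0.975 in wild-type ovaries of E16, where Fabp7 fell, and to 0.352 to 0.391 against 0.438 to 0.478 at P0, where none was called. The summed signal of the 7 ovarian supporting genes was lower too, at 18.1 to 25.9 against 31.0 to 34.0 at E16 and 20.7 to 28.2 against 29.8 to 33.9 at P0, but Foxl2 itself is among them and was the only one called. The median log2 difference over the 7 genes was above 0, at 0.147 at E16 and 0.432 at P0. Lists of other cell types parted as well, of which some are given. Endothelial genes summed to 5.39 to 5.85 in nulls against 4.69 to 5.03 in wild type at E16. At P0 they summed to 5.38 to 6.28 against 3.97 to 4.9. The summed Sertoli signal was lower in nulls at E16 (3.0 to 3.4 against 3.94 to 4.51), and the steroidogenic sum at P0 (1.96 to 2.99 against 3.14 to 3.94). Gene by gene, however, the median log2 difference of the 8 Sertoli genes at E16 was 0.365, with Dhh called up and Aard called down. In the Kit background germ cell genes were lower without Foxl2 (0.702 to 1.79 against 2.19 to 9.92). The part of these cell types in the Clstn2 and Lrrc4 differences was not tested. In Wnt4-null ovaries of E15 the sum of the neuron markers was 0.831 to 4.35 against 0.694 to 0.862 in controls. Of the 2 null arrays, 1 set its upper end: the neurofilament gene Nefl read 0.0778 and 1.90 in them against 0.0899 and 0.0983 in controls. Snap25, a protein of vesicle release, read 0.0845 and 0.404 against 0.00762 and 0.0123. The part of nerve tissue in the E15 values was not tested.

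The relatives were described in the same comparisons. Clstn1, a calsyntenin that links cargo to kinesin, read 0.952 to 3.11 over all arrays and differed by -0.07 ± 0.20, 0.02 ± 0.20 and -0.00 ± 0.20 between Foxl2-null and reference ovaries at E13, E16 and P0. Its other probe set was lower at P0 without overlap, at -0.36 ± 0.19. Clstn3, at 0.336 to 0.983, differed by -0.24 ± 0.31, 0.11 ± 0.31 and 0.08 ± 0.31, and its arrays parted only in the Wnt4-null background, at 0.839, 0.689 and 0.783 without Foxl2 against 0.514, 0.352 and 0.462 (0.80 ± 0.31). Lrrc4c, whose protein binds netrin-G1, read 0.0799 to 0.801 and differed by 0.05 ± 0.37, 0.05 ± 0.37 and -0.07 ± 0.37. In the Wnt4-null background 1 of its 3 probe sets was apart, at -1.26 ± 0.44, and the brightest was not (-0.10 ± 0.37). Cbln2 read 0.0201 to 0.622 and overlapped in all 5 Foxl2 models. For Nrxn3, the neurexin, the brightest of 5 probe sets read 0.431 to 0.479 in Foxl2-null P0 ovaries against 0.1595 to 0.4004 in wild type (0.80 ± 0.51), but its other 4 probe sets overlapped there, and correlations among the 5 were 0.35 to 0.68. At E15 Nrxn3 read 0.353 and 0.404 in Wnt4-null ovaries against 0.125 and 0.223 (1.13 ± 0.63).

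**Figure D3:**
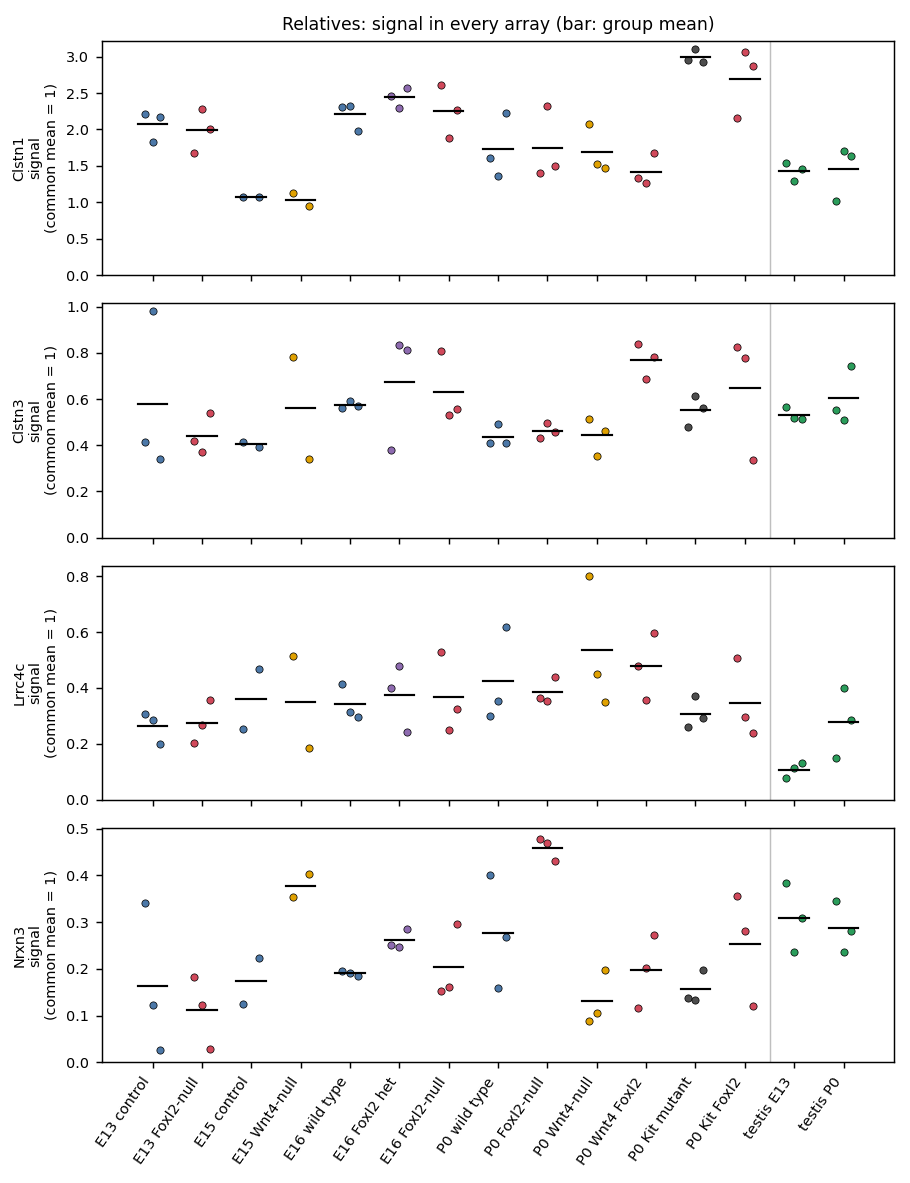
Signal of the brightest probe sets of Clstn1, Clstn3, Lrrc4c and Nrxn3 on linear axes that start at 0, as multiples of the common mean, for each array (points) and group mean (bars). Clstn1 is highest in Kit mutants (mean 2.999), Clstn3 spans 1.91-fold between group means, and Lrrc4c is lowest in E13 testes (mean 0.109).

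Counted over the 8 genes, the arrays of 0 genes parted at E13 in the Foxl2 comparison, of 3 at E16, of 3 at P0, of 4 in the Wnt4-null and of 3 in the Kit background, and of 3 and 2 in the Wnt4 comparisons of E15 and P0. Over all genes, 11.1% to 17.9% parted in the 5 Foxl2 comparisons, 44.5% in the Wnt4 comparison of E15 and 33.7% in that of P0. At an adjusted p under 0.05, the shares of all genes that rose and fell were 0.495% and 0.902% at E13, 0.396% and 0.264% at E16, 0.247% and 0.577% at P0, 0.412% and 0.511% in the Wnt4-null background, 0.286% and 0.858% in the Kit background, 1.5% and 0.594% for Wnt4 at E15, and 7.07% and 9.87% for Wnt4 at P0. With arrays scaled to their median, 212 genes rose and 140 fell at E13 in place of 90 and 164, 54 and 111 in the Wnt4-null background in place of 75 and 93, and 194 and 137 for Wnt4 at E15 in place of 273 and 108. With the 2 groups alone, 1 rose and 1 fell at E13, 5 and 18 in the Kit background in place of 52 and 156, but 120 and 97 at E16 in place of 72 and 48. Without null replicate 3, 1175 rose and 283 fell at E13. The median difference of the 8 genes was between -0.24 and 0.24 in these comparisons, against -0.03 to 0.05 over all genes. The choice of genes used these comparisons, so nothing is read from the counts.

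**Figure D4:**
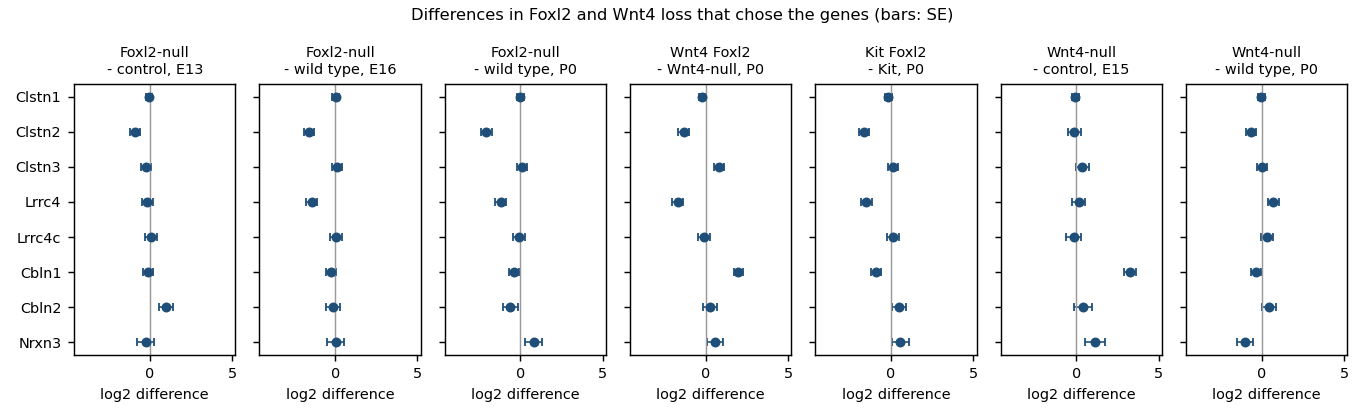
Log2 differences (horizontal axes, points) with SE (bars) for the 8 genes in the 7 comparisons of Foxl2 or Wnt4 loss on which the set was selected, shown as a description. Clstn2 lies at -0.89 to -2.07 in the 5 Foxl2 comparisons, Lrrc4 at -1.21 to -1.71 in all but that of E13, and Cbln1 at 3.27 in the Wnt4 comparison of E15.

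In the first of the tested comparisons, Foxl2+/- against wild-type ovaries of E16, Clstn2 read 0.707, 0.839 and 0.745, between the 1.25 to 1.39 of wild type and the 0.360 to 0.534 of nulls, and the 3 genotypes did not overlap. Lrrc4 was also in between, at 0.839, 0.958 and 1.13, against 1.37 to 1.45 and 0.291 to 0.720. Neither passed the test across all genes: Clstn2 differed by -0.77 ± 0.32 (limma, adjusted p = 0.819) and Lrrc4 by -0.53 ± 0.32 (adjusted p = 0.92). The second probe set of Clstn2 gave -0.99 ± 0.34 without overlap (adjusted p = 0.68), and that of Lrrc4 -0.32 ± 0.27 with overlap. The arrays of 3 of the 8 genes parted, the third being Nrxn3 (0.43 ± 0.51), as did those of 17.3% of all genes, and at an unadjusted p under 0.05 limma gave 0 of the 8 higher and 1 lower, Clstn2. In the whole array 0.0055% of genes rose, which was 1 gene, and 0% fell, while 514 were higher and 507 lower at an unadjusted p under 0.05. The wild-type arrays are those of the E16 comparison that chose the genes.

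Between testes and ovaries, Cbln1 and Cbln2 rose and Clstn2 fell in testes at both ages. At E13, 3.3% of all genes rose and 4.84% fell in testes, and of the 8 genes 2 rose and 2 fell. The ovaries of that age are Foxl2+/- by the labels, and the part of the missing Foxl2 copy in these differences was not tested. Cbln1 was higher by 4.07 ± 0.30 (limma, adjusted p = 7.46e-13), and its other probe sets by 5.70 ± 0.30 and 5.30 ± 0.39. Cbln2, a cerebellin of other brain regions, read 0.254, 0.520 and 0.123 in testes against 0.129, 0.0852 and 0.0316 in ovaries, a rise of 1.69 ± 0.44 (adjusted p = 0.0123) although 1 testis read below 1 ovary. That call was lost without the testis of replicate 2 (1.19, adjusted p = 0.179) and without the ovary of replicate 3 (1.201, adjusted p = 0.178).

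Clstn2 fell by 1.197 ± 0.32 on the log2 scale in E13 testes (adjusted p = 0.0155), with no overlap, though its second probe set gave -0.40 ± 0.34 and the call was lost without testis replicate 2 (-1.18) or 3 (-0.99) and without ovary replicate 2 (-0.99). Lrrc4c read 0.0799, 0.113 and 0.133 in E13 testes against 0.307, 0.285 and 0.200 in ovaries, a difference of -1.21 ± 0.37 (adjusted p = 0.0425), with its other probe sets at -1.64 ± 0.44, called, and -1.27 ± 0.48, not called. The call of Lrrc4c was lost when any array but ovary replicate 3 was left out, at -1.02 to -1.36. Lrrc4 did not pass the test (-0.06 ± 0.32). Nrxn3 differed by 1.39 ± 0.51 (adjusted p = 0.106), a difference that moved to 2.17 (adjusted p = 0.00411) without ovary replicate 1.

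At P0 the testes lacked Wnt4 and the ovaries did not, so sex and Wnt4 genotype cannot be told apart. Here 12.2% of all genes rose in testes and 16.7% fell (2217 and 3045 genes, or 1362 and 3829 with arrays scaled to their median), and 2 of the 8 genes rose and 2 fell. Cbln1 rose by 3.63 ± 0.30 (adjusted p = 1.67e-11) and Cbln2 by 2.43 ± 0.44 (adjusted p = 6.36e-05), the latter from 0.0583, 0.155 and 0.0457 in ovaries to 0.423, 0.349 and 0.622 in testes. Clstn2 fell by 1.83 ± 0.32 (adjusted p = 3.84e-05) and Lrrc4 fell by 1.203 ± 0.32 (adjusted p = 0.0054), each with its second probe set, at -1.26 ± 0.34 and -1.46 ± 0.27. Without ovary replicate 2 the Lrrc4 difference was -0.96 and no longer passed (adjusted p = 0.0559). Whether the Lrrc4 difference changed between E13 and P0 was not tested. Clstn1 was lower at its dimmer probe set, by 0.69 ± 0.19 at E13 and 0.74 ± 0.19 at P0, both called, while the brighter one gave -0.53 ± 0.20 and -0.26 ± 0.20 and was not called.

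**Figure D5:**
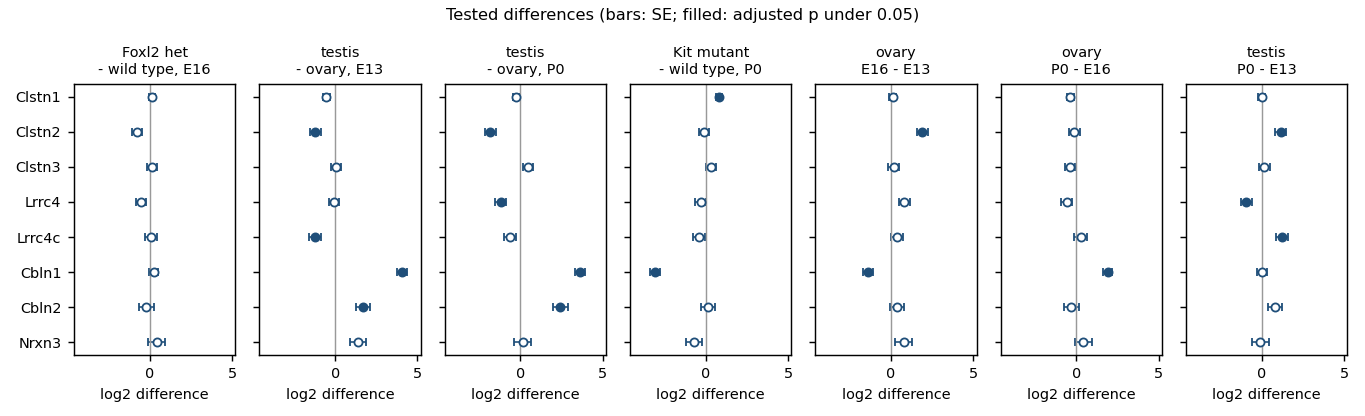
Log2 differences (horizontal axes, points) with SE (bars) for the 8 genes in the 7 tested comparisons, filled where the adjusted p of limma was under 0.05. Cbln1 stands at 4.07 and 3.63 in the testis comparisons and at -3.10 in Kit mutants, and no gene is filled in the comparison of Foxl2 heterozygotes.

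In Kit mutant ovaries of P0, where 17.3% of all genes rose and 13.3% fell, Cbln1 fell by 3.10 ± 0.30 (adjusted p = 1.18e-09), with its other probe sets at -1.71 ± 0.30 and -1.48 ± 0.39, both called. Clstn1 rose by 0.82 ± 0.20 (adjusted p = 0.00198), from 1.62, 1.36 and 2.23 to 2.96, 3.11 and 2.93, but its dimmer probe set gave 0.03 ± 0.19, and with arrays scaled to their median the difference was 0.53 (adjusted p = 0.0847). Over all genes, 3147 rose and 2420 fell, but 1154 and 3370 with that scaling and 2092 and 2673 with quantile scaling. The median of all genes was itself 0.226 higher in Kit mutants, and -0.0317 after that scaling. Clstn2 (-0.10 ± 0.32) and Lrrc4 (-0.31 ± 0.32) did not pass the test and overlapped wild type, in ovaries whose germ cell list was lower. Their second probe sets gave -0.84 ± 0.34 (adjusted p = 0.0638, overlapping) and 0.31 ± 0.27 (adjusted p = 0.417, apart), so for Lrrc4 the 2 probe sets differed in sign. Of the 8 genes, 1 rose and 1 fell. The Kit mutants are Foxl2+/- by their labels, so Kit mutation and loss of 1 Foxl2 copy cannot be told apart.

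With age, Clstn2 rose in ovaries between E13 and E16 by 1.90 ± 0.32 (adjusted p = 0.000162), and its second probe set by 1.63 ± 0.34, also called. Cbln1 fell over the same time by 1.42 ± 0.30 (adjusted p = 0.00186), but its other probe sets gave -0.37 ± 0.30 and -0.50 ± 0.39, and the mean of the 3 gave -0.76 (adjusted p = 0.0776). These were the 1 rise and the 1 fall among the 8 genes, where 5.09% of all genes rose and 3.94% fell (925 and 716 genes, or 342 and 1494 with arrays scaled to their median and 769 and 938 with quantile scaling). Lrrc4 was higher by 0.81 ± 0.32 without passing (adjusted p = 0.123). From E16 to P0, with 10.2% of all genes up and 20.7% down (1858 and 3756, or 3716 and 1112 with median and 2304 and 1852 with quantile scaling), Cbln1 alone of the 8 passed, rising by 1.89 ± 0.30 (adjusted p = 1.56e-05), with 0.65 ± 0.30 and 0.49 ± 0.39 at its other probe sets, which were not called. A dimmer probe set of Lrrc4c fell by 1.32 ± 0.44 (adjusted p = 0.0232) while the brightest gave 0.25 ± 0.37. The E13 controls carry 1 Foxl2 copy by the labels and the E16 ovaries 2, so age and genotype cannot be told apart in the first of these comparisons.

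In testes, between E13 and P0, 9.06% of all genes rose and 13.8% fell. Of the 8, Clstn2 rose by 1.14 ± 0.32 (adjusted p = 0.00938), Lrrc4c rose by 1.21 ± 0.37 (adjusted p = 0.0179) and Lrrc4 fell by 0.93 ± 0.32 (adjusted p = 0.0394), with its second probe set at -1.16 ± 0.27, also called. Cbln1 differed by 0.02 ± 0.30, though 1 of its other probe sets fell by 1.18 ± 0.39 (adjusted p = 0.0276). The second probe set of Clstn2 (0.68 ± 0.34) and the other 2 of Lrrc4c (0.87 ± 0.44 and 0.45 ± 0.48) were not called. The Clstn2 call was lost without E13 replicate 3 (0.94) or P0 replicate 2 (1.004), and that of Lrrc4 without E13 replicate 1 (-1.001) or 3 (-0.70) or P0 replicate 1 (-0.88) or 2 (-0.73). The call of Lrrc4c was lost without E13 replicate 1 (1.02) or P0 replicate 2 (0.91) or 3 (1.14). The P0 testes lacked Wnt4, so age and genotype cannot be told apart here either.

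Of 51 further genes of synaptic adhesion, 46 were analysed here, and 0 or 1 of them passed the test in each of the 5 Foxl2 comparisons. Without Foxl2, limma called 0 of the 46 at E13 and 0 at P0, with 3 higher and 2 lower and 3 higher and 9 lower at an unadjusted p under 0.05, and 1 in each other model. The paired fit at E13 called 1 of the 46, Cadm3, named after its values were seen, which rose, and 192 genes up and 313 down of all. These are shares to be read beside the percentages of all genes above. The 1 gene at E16 and in the Kit background was Lrrtm4, a leucine-rich postsynaptic partner of neurexins and heparan sulfate proteoglycans, which fell by 1.86 ± 0.45 (adjusted p = 0.0466) and 1.82 ± 0.45 (adjusted p = 0.038), a call lost in each case when any of 5 of the 6 arrays was left out (-2.11 to -1.47 and -1.92 to -1.46). The 1 gene in the Wnt4-null background was the teneurin Tenm4, a large adhesion protein that binds latrophilins, which fell by 1.23 ± 0.29 (adjusted p = 0.0287), from a mean of 4.18 to 1.76. The Tenm4 call was lost without replicate 1 or 2 of either group (-1.09 to -1.16).

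Cbln4, a further secreted cerebellin, rose in Wnt4-null ovaries from 0.228 to 1.16 at E15 (2.29 ± 0.53, adjusted p = 0.0151, lost when any of the 4 arrays was left out, at 2.17 to 2.42) and from 0.0343 to 0.560 at P0 (3.66 ± 0.44, adjusted p = 2.02e-07). It also rose in testes, by 3.16 ± 0.44 at E13 (adjusted p = 2.29e-06) and 5.79 ± 0.44 at P0 (adjusted p = 2.44e-12). In the latter its mean signal was 2.71 against 0.0343. Cbln1 was higher in the same testes and E15 ovaries.

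In Wnt4-null ovaries of P0, 8 of the 46 rose and 2 fell, where 7.07% of all genes rose and 9.87% fell. Lrrtm4 rose by 2.98 ± 0.45 (adjusted p = 1.06e-05), the teneurin Tenm3 by 1.72 ± 0.28 (adjusted p = 3.17e-05) and Lrrtm3 by 1.29 ± 0.27 (adjusted p = 0.000892). Slitrk1, a leucine-rich protein that binds receptor phosphatases, fell by 1.60 ± 0.32 (adjusted p = 0.000548) and Cadm1, an immunoglobulin-type adhesion protein also found on germ cells and Sertoli cells, by 1.25 ± 0.22 (adjusted p = 0.000126). At E15, 2 of the 46 rose, Cbln4 and Slitrk2, and 0 fell, with 10 higher and 2 lower at an unadjusted p under 0.05. Of all genes, 1.5% rose and 0.594% fell there. Slitrk2 rose by 2.85 ± 0.64 (adjusted p = 0.011), a call lost without control replicate 1 (1.32) and without null replicate 1 (2.69) or 2 (3.01). The call of Slitrk2, at a mean of 0.041 in controls, was also lost with pseudocounts of 1 and 16 intensity units and with the 2 groups alone.

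Between testes and ovaries, 2 of the 46 rose and 2 fell at E13, and 10 rose and 3 fell at P0, with Slitrk5 up by 3.99 ± 0.63 (adjusted p = 9.26e-06) and Slitrk1 down by 2.74 ± 0.32 (adjusted p = 4.15e-08) at P0. Of all genes, 3.3% rose and 4.84% fell at E13, and 12.2% and 16.7% at P0. With arrays scaled to their median, the P0 counts of the 46 were 7 and 7. Kit mutants had 17 up and 2 down, for example Nrxn2, the neurexin, up by 1.23 ± 0.27 (adjusted p = 0.000862), but 5 and 4 after that scaling. From E16 to P0, 1 of the 46 rose and 21 fell, for example Slitrk6 by 2.24 ± 0.43 (adjusted p = 0.000234), and 3 and 7 after the scaling, which moved the median of all genes from -0.273 to 0.102. From E13 to E16, 5 rose and 1 fell, or 3 and 2 after the scaling, and in testes with age 6 rose and 3 fell. Before scaling, the shares of all genes up and down were 17.3% and 13.3% in Kit mutants and 10.2% and 20.7% from E16 to P0. They were 5.09% and 3.94% from E13 to E16, and 9.06% and 13.8% in testes with age. Foxl2 heterozygotes had 0 calls by limma, with 0 higher and 5 lower at an unadjusted p under 0.05.

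Among the 8 genes, the 15 group means of Clstn2 and Lrrc4 correlated at r = 0.57, those of Cbln1 and Cbln2 at 0.64 and those of Cbln1 and Clstn1 at -0.66, values that share arrays and sexes and are given without a test. Of 12617 genes above the median signal in at least 1 group, those nearest to Clstn2 over the 15 group means were Tgfbrap1 (r = 0.86), the fucosyltransferase Fut8 (0.83), the matrix protein Thbs2 (0.83), Muc16 (0.83) and Tgfb1i1 (0.83). Those nearest to Lrrc4 were Swsap1 (0.80), the netrin Ntn4 (0.79), Edem3 (0.78), Pla2g4c (0.78) and Sec22b (0.76). Those nearest to Cbln1 were Larp1 (0.94), Shmt1 (0.94), Eif3a (0.92), Srsf3 (0.92) and Stard4 (0.91).

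Likeness over the groups came with unlike values in single comparisons. In Foxl2-null ovaries of E16 and P0, Thbs2 differed by -1.57 ± 0.25 and -1.25 ± 0.25, and Ntn4 by -2.92 ± 0.42 and -2.17 ± 0.42, whereas Tgfbrap1 gave -0.18 ± 0.23 and -0.57 ± 0.23 and Swsap1 -0.05 ± 0.30 and -0.22 ± 0.30. In testes of P0, Thbs2 differed from ovaries by -0.12 ± 0.25, where Clstn2 differed by -1.83 ± 0.32. Larp1, the nearest to Cbln1, differed by 0.26 ± 0.15 in E13 testes and 0.20 ± 0.15 in P0 testes. Cbln1 itself differed there by 4.07 and 3.63, so the high r came with far smaller changes. These genes were picked by their likeness to genes chosen on such comparisons, so no test is given.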

How the data were processed

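Whole gonads of 43 mice were hybridised singly to Affymetrix MOE430 v.2 arrays. By the methods the authors summarised probes with plier in R and brought all arrays to 1 global mean, and the deposited files hold the resulting linear intensity. The submitters' processing notes also name GCOS 1.3, and the genome build is not given in the sources used here. RNA had been amplified linearly before labelling. Of 45071 probe sets, 64 controls were left out. All others were converted here from the deposited intensity to log2 after adding 1% of the common mean, which raises low values and understates their fold changes. The platform annotation paired 34927 of them with a single symbol; the 930 with more than 1 symbol and the 9150 without were left unnamed.

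Group means of all 15 groups were estimated together, using lmFit and trended eBayes (limma 3.58.1, R 4.3.3; 28 residual degrees of freedom). Two-sided p-values were adjusted by Benjamini and Hochberg's method across the 45007 probe sets. The brightest probe set stood for a gene, called at an adjusted p under 0.05. The method was tested on simulated data. In the fit, 1 variance per probe set is shared by all groups. Alternative pseudocounts were 1 and 16 intensity units, both close to none beside the common mean of 15974003 units, and 5% of that mean. Other alternatives were quantile and median scaling, only probe sets above the median, the 2 groups alone, a replicate block, the mean of a gene's probe sets and leaving out each array. Same-numbered E13 null and control arrays correlated at 0.132 to 0.158 after removal of group means and were also fitted as pairs, an assumption taken from the data and not the design. In no other comparison did every pair exceed 0.1.

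Members and lists were chosen with earlier results of these data known. The text names all 8 members, genes from the list of synaptic adhesion that were called without overlap and ranked among the 4 largest changes per direction, and the 5 nearest patterns of Clstn2, Lrrc4 and Cbln1. Some members of that list are not reported here. Each array is 1 mouse, so p-values measure the spread between mice. Promoter sequences are RefSeq's, GRCm38.p6.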

Additional observations from a re-analysis of the deposited data

Results flagged for a closer look

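Cbln1 was flagged because its Foxl2 difference ran in opposite directions between settings, with no overlap of the arrays in each. It was 1.98 where Wnt4 was missing, and -0.24 at E16 and -0.92 in the Kit background. The E16 value is smaller than its SE of 0.30, and the other 2 probe sets of Cbln1 overlapped at E16 and in the Kit background. The difference between these values was not tested, since the gene was chosen on such comparisons.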

How the results depend on the processing

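Over the 7 tested comparisons, the 8 members kept their direction and their side of the threshold in 738 alternative values. The sign of a difference that was not called changed in 54, a call was lost in 29 and gained in 5. For Clstn2, Lrrc4 and Cbln1 in heterozygotes and testes, the E13 fall of Clstn2 was -0.80 and not called with the mean of its probe sets and -1.197 and not called with the 2 groups alone, and Cbln1 in heterozygotes was -0.25 with the mean of its probe sets. Leaving out 1 array at a time gave -1.46 to -0.99 for Clstn2 in E13 testes, -0.30 to 0.10 for Lrrc4 in E13 testes and -1.51 to -0.96 for Lrrc4 in P0 testes. The cause was not tested. Some listed genes turned with the mean of their probe sets, Adam17 in Kit mutants (0.14 for a called fall) and Dlg4 in testes with age (0.057 for a called fall).

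The number of the 46 listed genes called in Foxl2-null ovaries was 1 in place of 0 at E13 with quantile scaling or the replicate block (Cadm3, up) or the mean of probe sets (Flrt1, down), and 0 to 2 with an array left out. It was 0 in place of 1 at E16 with pseudocounts of 1 and 16, only probe sets above the median, the mean of probe sets and the replicate block, and 0 to 1 with an array left out. At P0 it was 1 in place of 0 with pseudocounts of 1 and 16, quantile or median scaling and the mean of probe sets, and 0 to 1 with an array left out. In the Wnt4-null background it was 2 in place of 1 with the 2 groups alone, and 0 to 1 with an array left out. In the Kit background it was 2 in place of 1 with quantile scaling, 0 with pseudocounts of 1 and 16, only probe sets above the median, the mean of probe sets or the 2 groups alone, and 0 to 1 with an array left out. For Wnt4 at E15 it was 1 in place of 2 with only probe sets above the median, 4 with the mean of probe sets, 3 with the other pseudocounts or median scaling, and 0 to 2 with an array left out. For Wnt4 at P0 it was 12 in place of 10 with the 5% pseudocount and 8 to 11 with an array left out. For Clstn2 at E13 the replicate block left the Foxl2 difference at -0.89, and for the tested comparisons, where the numbers pair nothing, it ended 1 call of a member, Lrrc4c in E13 testes (adjusted p = 0.0504).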
